A study of Homo sapiens with 2 samples.

Results

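Potassium channel subunits were examined as a gene family in human cerebral organoids, cultures of pluripotent stem cells that form cortex-like tissue. The members were all genes whose symbol is that of a numbered pore-forming family (KCNA to KCNK, KCNN, KCNQ, KCNS, KCNT, KCNU and KCNV) or of an auxiliary family (KCNIP, KCNMB, KCNAB and KCNE). This gave 94 of the 62704 genes in the count tables. Of these, 94 had a transcript in the retained single cells and 92 in the retained nuclei. KCNMA1, the BK pore, has a symbol that the rule does not take and is given below with the associated genes.

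A single-cell library pooled control organoids (CO) at days 45, 55 and 70, organoids dissociated at day 45 and allowed to reaggregate (DISS) at days 48, 55 and 70, and organoids freed of Matrigel at day 13 and then constrained in 3% agarose (CONS) at day 55. A second library held nuclei, which the study's text takes from whole and from dissociated organoids at day 45, while the sample's own treatment label also lists embedding. All organoids came from the H9 human embryonic stem cell line, so genotype was shared and rests on 1 line. Every barcode carried the same sample name, so CO, DISS and CONS could not be told apart and were not compared, and each library counted as 1 sample. The contrasts below are between cell classes within a library, they have no test, and their intervals cover counting error only.

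Potassium channels let potassium flow down its gradient, which sets the resting potential of a cell and ends action potentials. Voltage-gated (Kv) pores open on depolarization, inward rectifiers (Kir) and K2P leak channels carry current near rest, and SK channels open with intracellular calcium. Radial glia (RG), the neural stem cells of the cortex, have a membrane dominated by leak, whereas neurons acquire the voltage-gated set that shapes firing.

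After filtering, 20178 of 1303455 barcodes were retained in the single-cell library (median 2615 transcripts) and 14228 of 197446 in the nuclei (median 3890), and 99 barcode names occurred in both libraries. Clusters were made without the channel genes and named from marker lists. RG-like barcodes numbered 1827 single cells and 2690 nuclei, excitatory neuron-like barcodes 1449 and 2515, and intermediate progenitor-like (IPC-like) barcodes 838 and 529. The 15 RG markers summed to 5797 counts per 1000000 transcripts (CPM) in RG-like and 1813 CPM in excitatory neuron-like single cells, and to 6351 and 1306 CPM in nuclei. The 19 excitatory neuron markers summed to 3054 and 10116 CPM in single cells and to 3849 and 10330.2 CPM in nuclei. None of either list was at 0. The same lists named the clusters, so these sums describe the classes and are no separate check of their identity. One of the RG-like clusters of nuclei was led by the immediate early genes EGR1 and FOS, and the choroid plexus-like (ChP-like) clusters with the highest marker levels were led by genes of cilia such as CFAP47. Another 7268 single cells and 3572 nuclei stayed unnamed.

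Channel transcripts made up a larger share of RNA in neuron-like than in RG-like classes. Their summed level was 3091 CPM in RG-like, 5941 CPM in IPC-like and 7476 CPM in excitatory neuron-like single cells. In nuclei the same sums were 4528, 7415 and 9650.1 CPM. ChP-like barcodes had the lowest sum of the named classes in both libraries, at 2774 and 2655 CPM. Free RNA was read from barcodes of 10 to 100 transcripts, where the sum was 4431 CPM in single cells and 5582 CPM in nuclei. From the choroid plexus genes TTR, CLIC6 and HTR2C, free RNA was estimated at 19.0% of RG-like and 14.3% of excitatory neuron-like transcripts in single cells, and at 3.32% and 3.39% in nuclei. Its part in the differences below was not tested, beyond the values given after subtracting it.

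To ask which channel genes differ between neuron-like and progenitor-like classes, the log2 ratio of CPM in excitatory neuron-like over RG-like barcodes was taken for each gene with at least 30 transcripts in these classes together, and a gene was called at 1 log2 unit. In single cells 67 members were tested. Of these 25 (37.3%) were higher in the excitatory neuron-like class, where 7.92% of all tested genes were, and 3 (4.48%) were lower, where 12.1% of all tested genes were. The count of lower members was 6 with free RNA subtracted and 5 with 1 of the excitatory neuron-like clusters alone. In nuclei 57 members were tested, 28 (49.1%) were higher against 11.8% of all tested genes, and 4 (7.02%) were lower against 19.7%, which became 7 with 1 of the excitatory neuron-like clusters alone. The median log2 ratio of the members was 0.60 in single cells and 0.94 in nuclei, beside -0.20 and -0.24 over all tested genes. Of 57 members tested in both libraries, 50 had the same sign, as did 14295 of the 17031 genes tested in both. Of the members, 20 were higher in both (7.32% of all genes tested in both were) and 2, KCNJ10 and KCNMB3, were lower in both (11.0%). No member was called in opposite directions.

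**Figure D1:**
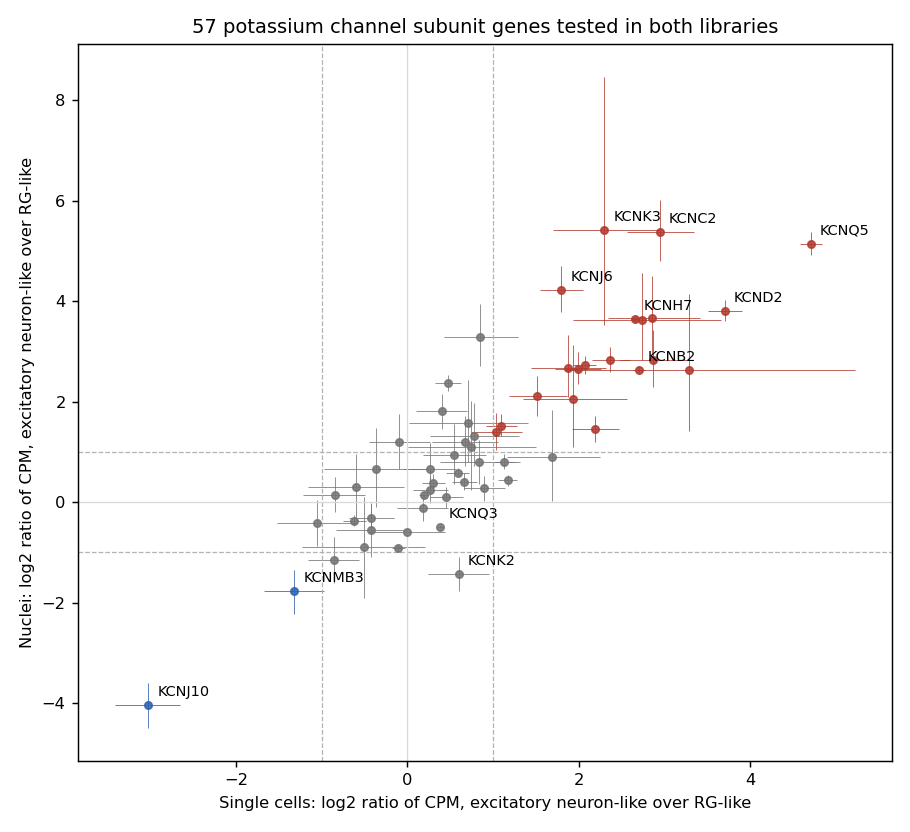
Log2 ratio of CPM, excitatory neuron-like over RG-like, in single cells (x axis) and nuclei (y axis) for the 57 channel genes tested in both libraries. Bars are exact 95% intervals for counting error and dashed lines mark 1 log2 unit, and the 20 genes higher in both libraries lie at the upper right, with KCNJ10 and KCNMB3 at the lower left.

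Promoter sequence is shown for members at the ends of this contrast, to set side by side the DNA upstream of genes that moved together. RefSeq promoters (GRCh38.p14) matched 70 of the 94 members, and the 250 bases before each start were searched on both strands. GGGCGG, the core of a GC box, occurred in 7 of the 10 matched members that were higher in both libraries (70.0%), in 53.3% of the 60 other matched members and in 42.3% of all 27305 promoters. The median GC content of these windows was 68.0%, 64.6% and 58.0%. CAGATG, an E-box, occurred in 0 of the 10, in 20.0% of the 60 and in 12.2% of all promoters. The RE1 element, searched as its core letters with some positions left free, occurred in 0 of the 70 members and in 0.0476% of all promoters. A match is a match of letters only, and the lack of one says nothing of the factor. KCND2 (chr7:120272925-120273174, plus strand) had 2 matches to GGGCGG, KCNK3 (chr2:26692472-26692721, plus strand) had 7 and KCNC2 (chr12:75209840-75210089, minus strand) had 0, all 3 being higher in the excitatory neuron-like class, while KCNJ10 (chr1:160070161-160070410, minus strand), which was lower, had 3. Each window is printed 5′ to 3′ on the gene's strand, with GGGCGG or its reverse complement in capitals.
KCND2: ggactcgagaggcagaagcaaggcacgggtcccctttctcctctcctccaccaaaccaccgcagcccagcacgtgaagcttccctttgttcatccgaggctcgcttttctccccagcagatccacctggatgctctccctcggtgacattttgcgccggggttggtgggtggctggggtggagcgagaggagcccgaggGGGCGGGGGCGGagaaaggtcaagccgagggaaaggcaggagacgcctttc
KCNK3: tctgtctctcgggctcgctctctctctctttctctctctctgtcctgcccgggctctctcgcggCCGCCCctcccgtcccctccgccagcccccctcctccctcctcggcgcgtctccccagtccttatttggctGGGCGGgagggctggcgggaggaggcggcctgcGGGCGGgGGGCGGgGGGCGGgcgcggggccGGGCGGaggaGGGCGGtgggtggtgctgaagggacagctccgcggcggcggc
KCNC2: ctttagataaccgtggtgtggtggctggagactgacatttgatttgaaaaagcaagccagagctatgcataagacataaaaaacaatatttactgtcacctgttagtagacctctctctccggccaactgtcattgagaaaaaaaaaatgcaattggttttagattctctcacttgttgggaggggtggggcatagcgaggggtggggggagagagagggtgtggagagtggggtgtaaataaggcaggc
KCNJ10: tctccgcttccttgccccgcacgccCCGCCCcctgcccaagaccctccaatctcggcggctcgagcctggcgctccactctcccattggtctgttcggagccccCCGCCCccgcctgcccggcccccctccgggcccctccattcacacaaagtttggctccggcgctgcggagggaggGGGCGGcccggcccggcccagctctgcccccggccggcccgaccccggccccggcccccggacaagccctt

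KCND2 encodes Kv4.2, a pore of the rapidly inactivating A-type current, and lies at chr7:120273175-120750337 (GRCh38). In single cells it was at 17.0 CPM in RG-like barcodes (222 transcripts) and 222 CPM in excitatory neuron-like barcodes (3189 transcripts), a log2 ratio of 3.71 (3.51 to 3.91). In nuclei it was at 19.7 and 275 CPM (190 and 3581 transcripts), a log2 ratio of 3.81 (3.60 to 4.03). First-round wells, which hold cells of unknown condition, gave a view of the spread. In the 17 wells of single cells with at least 20 barcodes of both classes, KCND2 ran from 0 to 52.8 CPM (median 16.9) in RG-like and from 59.6 to 629 CPM (median 231) in excitatory neuron-like barcodes. In the 12 wells of nuclei the ranges were 0 to 56.5 CPM (median 17.7) and 124 to 389 CPM (median 289). The classes did not overlap over wells, and KCND2 was higher in the excitatory neuron-like class in 17 of 17 and 12 of 12 wells.

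The share of barcodes with a KCND2 transcript was taken after thinning each barcode to 1000 transcripts, with ChP-like barcodes as a reference. Whether KCND2 in ChP-like barcodes was free RNA or their own was not tested. In single cells the share was 1.97% (1.38 to 2.72) in RG-like, 16.0% (14.2 to 18.0) in excitatory neuron-like and 5.99% (4.90 to 7.25) in ChP-like barcodes. Exact 95% intervals are in parentheses. Draws of 1000 transcripts from the pooled RNA of barcodes of 10 to 100 transcripts, which lack the spread between barcodes, gave 11.8%. In nuclei the shares were 1.60% (1.16 to 2.15), 17.1% (15.7 to 18.7) and 2.33% (1.01 to 4.54), and the draws gave 10.6%. The RG-like share was below the ChP-like share in single cells, and in nuclei the intervals of these shares overlapped. With free RNA subtracted, KCND2 fell below 0 in RG-like single cells and was set to 0. The estimate of 19.0% free RNA thus took off more KCND2 than was counted there, and the 0 is not a measured absence. In nuclei the log2 ratio moved from 3.81 to 4.09. Without thinning, RG-like, excitatory neuron-like and ChP-like single cells had 9.47%, 43.3% and 14.8% at median depths of 5123, 6784 and 1710.5 transcripts. The nuclei had 3.68%, 37.4% and 9.33% at 2851.5, 4343 and 9539 transcripts.

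Excitatory neuron-like barcodes did not hold the most KCND2. In single cells the cortical hem-like class (318 barcodes, led by PAX3 and BMP3) came first, at 922 CPM, and exceeded the excitatory neuron-like class by 2.05 (1.98 to 2.13) log2 units. Of these hem-like cells 61.3% came from 1 well, with KCND2 at 1359 CPM, and without that well the level was 362 CPM. Hem-like nuclei, led by RSPO2 and PRTG, had 39.8 CPM. PAX3 instead led an unnamed cluster of nuclei, and RSPO2 and PRTG were among the leading genes of an unnamed cluster of single cells. The hem-like classes of the libraries may thus hold different cells, which was not tested. The hem-like class also carried choroid plexus markers, whose 10 genes summed to 4007 CPM in it and 14520.4 CPM in ChP-like single cells, and to 14697 and 31046 CPM in nuclei, where 1 of the 10 was at 0 in hem-like nuclei. The 11 hem markers summed to 1844 and 958 CPM in single cells and to 3824 and 1535 CPM in nuclei, and the part of ChP-like RNA in hem-like values was not tested. In nuclei the Cajal-Retzius-like (CR-like) class came first, at 486 CPM, above the excitatory neuron-like class by 0.82 (0.74 to 0.90) log2 units. Most of it lay in a cluster of 648 nuclei led by NXPH1 and GFRA1, at 527 CPM, while the 68 nuclei led by RELN, the secreted protein that marks Cajal-Retzius cells, had 57.1 CPM. CR-like single cells, also led by RELN, had 133 CPM. The remaining single-cell classes followed in the order dividing progenitor-like (84.1 CPM), glycolytic-state (75.7 CPM), ChP-like (47.2 CPM) and IPC-like (29.7 CPM), with RG-like last. In nuclei the dividing progenitor-like class had 63.8 CPM, and the IPC-like, ChP-like and RG-like classes, at 26.6, 22.5 and 19.7 CPM, came last in that order, and neighbours among these 3 did not differ beyond counting error. The hem-like nuclei, just above, exceeded the IPC-like nuclei by 0.58 (0.14 to 1.04) log2 units.

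KCNQ3 encodes Kv7.3, which pairs with other Kv7 subunits in the M-current, a brake on repetitive firing, and lies at chr8:132120861-132481095. It had the highest level of all members in RG-like barcodes of both libraries, on the scale of CPM and also per kilobase of exon. In single cells it was at 1175 CPM in RG-like (15361 transcripts) and 1533 CPM in excitatory neuron-like barcodes (22012 transcripts), a log2 ratio of 0.38 (0.35 to 0.41). In nuclei the order was the opposite, with 2102 and 1499.6 CPM (20326 and 19505 transcripts) and a log2 ratio of -0.49 (-0.52 to -0.46). Neither ratio reached 1 log2 unit. Over the 17 wells of single cells KCNQ3 ran from 586 to 1963 CPM (median 1129) in RG-like and from 699.7 to 2998 CPM (median 1645) in excitatory neuron-like barcodes, and was higher in the latter in 13. Over the 12 wells of nuclei the ranges were 1549 to 2935 CPM (median 1983) and 976 to 1774 CPM (median 1425), and it was higher in the excitatory neuron-like class in 0. The ranges of the classes overlapped in both libraries. The sign also turned with the processing, to -0.050 among single cells of more than 5000 transcripts and to 0.072 among nuclei clustered with another seed. With that seed the excitatory neuron-like nuclei were 1 cluster of 1182, instead of 2515 nuclei in 2 clusters.

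IPC-like barcodes held the most KCNQ3 of the named classes in both libraries. Intermediate progenitors, marked by EOMES, stand between radial glia and neurons. EOMES and LZTS1 were among the leading genes of the IPC-like clusters of both libraries. EBF2, CHST8 and CNTN2, also among them in single cells, instead were leading genes of an unnamed cluster of nuclei. The IPC-like classes of the libraries may thus hold different cells, which was not tested. The KCNQ3 level of IPC-like single cells was 1909.6 CPM (13525 transcripts). That exceeded the RG-like class by 0.70 (0.67 to 0.73) and the excitatory neuron-like class by 0.32 (0.29 to 0.35) log2 units. In nuclei it was 3728 CPM (7977 transcripts), above the RG-like class by 0.83 (0.79 to 0.86) and above the excitatory neuron-like class by 1.31 (1.28 to 1.35) log2 units. These intervals stayed above 0 under every clustering setting that gave both classes. In single cells the order continued with excitatory neuron-like, RG-like, glycolytic-state (1126 CPM), dividing progenitor-like (909 CPM), CR-like (525 CPM), ChP-like (442 CPM) and hem-like barcodes (196 CPM). In nuclei RG-like barcodes were followed by dividing progenitor-like (1798 CPM), excitatory neuron-like, CR-like (861 CPM), hem-like (283 CPM) and ChP-like nuclei (194 CPM). All neighbours in both orders differed beyond counting error.

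After thinning, KCNQ3 was found in 55.3% (53.0 to 57.6) of RG-like, 69.2% (66.7 to 71.5) of excitatory neuron-like, 72.3% (69.2 to 75.3) of IPC-like and 43.3% (40.9 to 45.8) of ChP-like single cells, and in 64.5% of draws from barcodes of 10 to 100 transcripts. In nuclei the shares were 73.4% (71.7 to 75.1), 66.3% (64.4 to 68.2), 90.7% (87.9 to 93.1) and 10.8% (7.71 to 14.6), and the draws gave 78.6%. The IPC-like share was above both references in each library, and the RG-like share was above that of ChP-like barcodes but below that of the draws. The draws come from pooled RNA without the spread between barcodes, so their share can exceed that of barcodes at the same CPM. By CPM, RG-like single cells were at 1175, above the 1035 of barcodes of 10 to 100 transcripts. Without thinning, the RG-like, excitatory neuron-like and ChP-like shares were 82.5%, 92.5% and 64.3% in single cells and 87.9%, 91.7% and 41.4% in nuclei. ChP-like single cells were uneven, with KCNQ3 at 920.3 CPM in a cluster of median depth 1432 transcripts and at 132 CPM in one of 7233.5, beside 1035 CPM in barcodes of 10 to 100 transcripts.

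**Figure D2:**
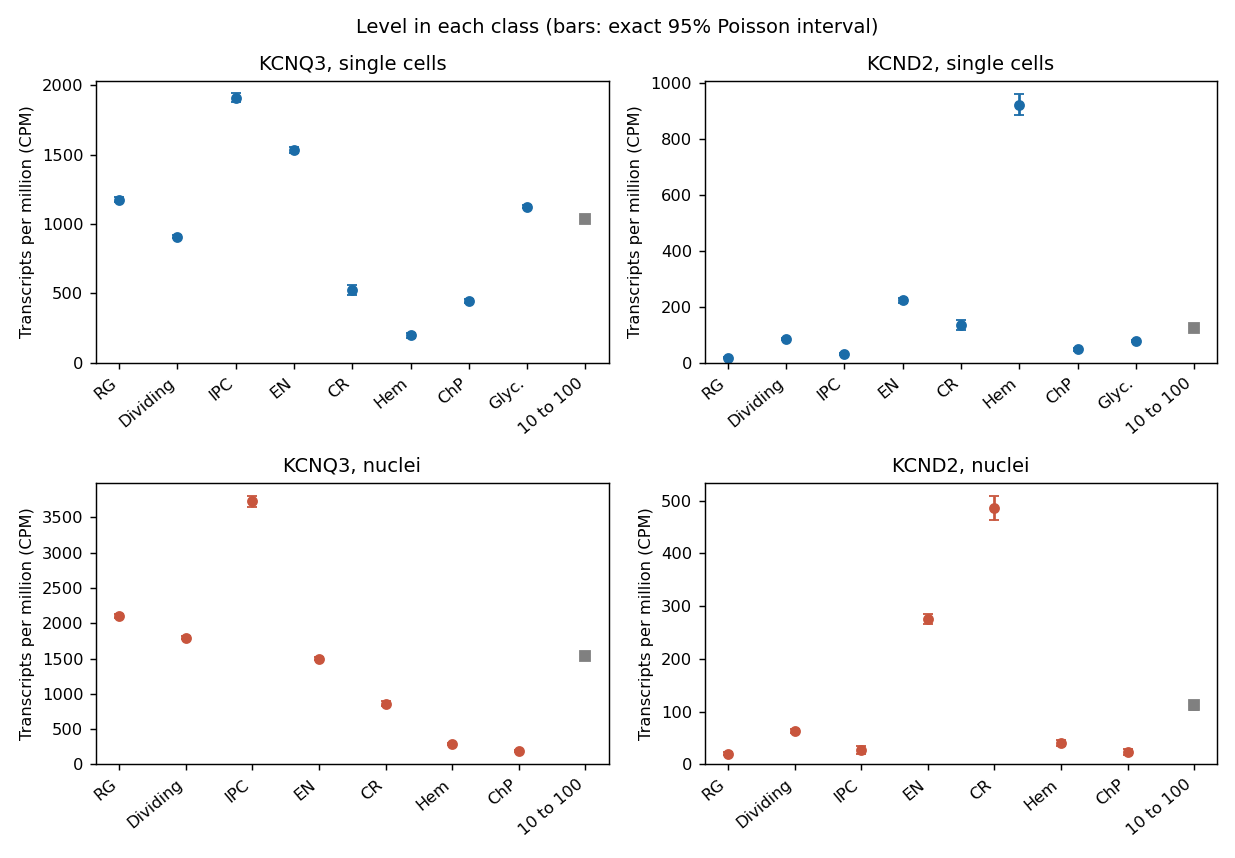
CPM of KCNQ3 and KCND2 in each named class of single cells and of nuclei, with exact 95% Poisson intervals, beside barcodes of 10 to 100 transcripts. KCNQ3 was highest in IPC-like barcodes (1909.6 and 3728 CPM), and KCND2 in hem-like single cells (922 CPM) and CR-like nuclei (486 CPM).

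**Figure D3:**
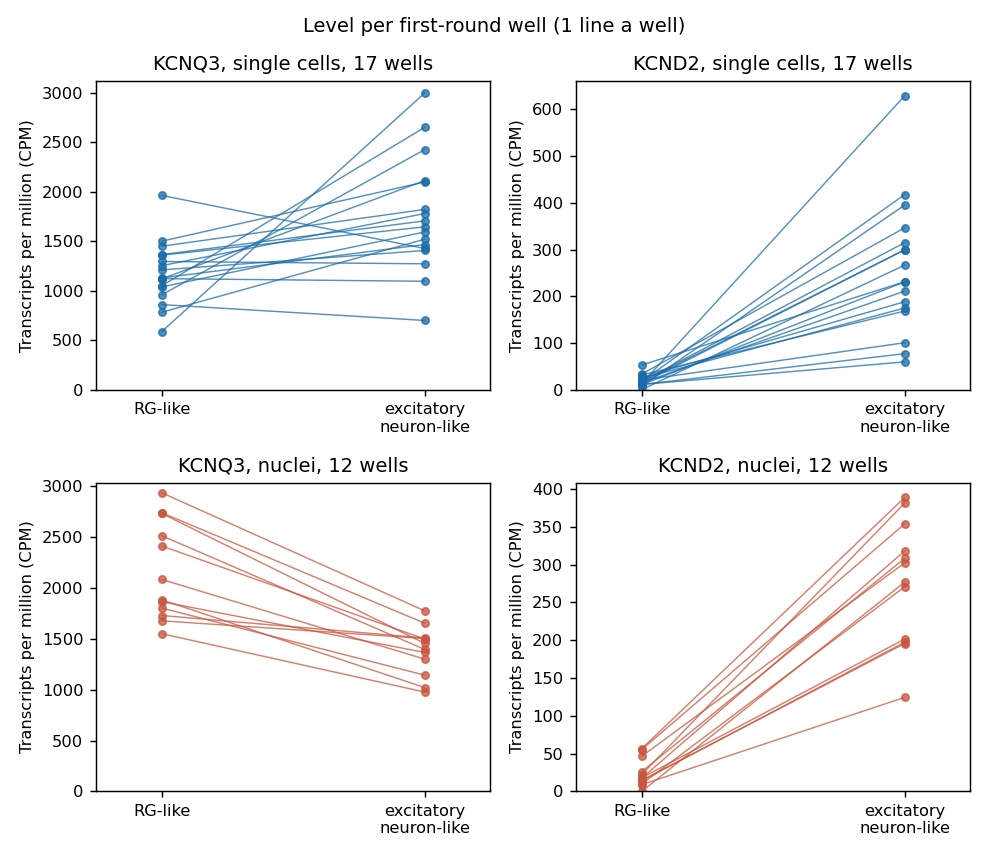
CPM of KCNQ3 and KCND2 in RG-like and excitatory neuron-like barcodes of each first-round well with at least 20 barcodes of both classes (17 wells of single cells, 12 of nuclei), the lines joining the classes of a well. KCND2 was higher in the excitatory neuron-like class in every well shown, and KCNQ3 in 13 of 17 wells of single cells and in 0 of 12 wells of nuclei.

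The excitatory neuron-like class of each library joined a cluster with SEZ6 and UNC5A among its leading genes and a cluster with CDH7 and GRIK3, a pairing made after values had been seen. The SEZ6 cluster held 1221 and the CDH7 cluster 228 of the single cells, against 1217 and 1298 of the nuclei. Of the CDH7 cluster of single cells, 41.7% came from 1 well. Whether the paired clusters hold the same types of neuron in both libraries was not tested. KCNQ3 was at 1678 and 956 CPM in the SEZ6 and CDH7 clusters of single cells, a log2 ratio of 0.81 (0.75 to 0.87), and at 2214 and 1033 CPM in nuclei, a log2 ratio of 1.10 (1.06 to 1.14). Set against RG-like barcodes, KCNQ3 had a log2 ratio of 0.51 in the SEZ6 cluster and -0.30 in the CDH7 cluster of single cells, and of 0.074 and -1.03 in nuclei. The mix of these clusters differed between the libraries, and the ratio of each cluster was lower in nuclei as well. The part of either in the difference between the libraries was not tested. KCND2 was at 267 and 41.7 CPM in single cells, a log2 ratio of 2.68 (2.42 to 2.96), and at 394 and 197 CPM in nuclei, a log2 ratio of 1.00 (0.90 to 1.09). KCNQ5 was near equal in single cells, at 1038 and 1041 CPM, and higher in the SEZ6 cluster of nuclei, at 770.3 and 539.8 CPM, a log2 ratio of 0.51 (0.45 to 0.58).

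Of 56 members tested between these clusters in both libraries, only 34 (60.7%) had the same sign in both, as did 56.4% of all tested genes. At least 1 log2 unit lower in the SEZ6 cluster in both were 8 members, where 1.88% of all tested genes were, and 1 was higher, where 1.15% were. KCNIP4, a calcium-binding partner of Kv4 pores, was at 42.2 and 137 CPM in the SEZ6 and CDH7 clusters of single cells and at 37.1 and 312 CPM in nuclei, with log2 ratios of -1.70 (-1.89 to -1.50) and -3.07 (-3.29 to -2.86). KCNIP1, of the same family, was at 62.4 and 166 CPM in single cells and 89.8 and 291 CPM in nuclei. KCNJ3, a G protein-gated Kir pore, was at 32.5 and 111 CPM and 14.4 and 63.1 CPM. The other 5 were the silent Kv subunits KCNG1 and KCNS3, the Kv pores KCNC4 and KCNH5, and the K2P subunit KCNK1, where the nuclei of the SEZ6 cluster held only 5 transcripts. KCNH8, an Elk-type pore, was the 1 member higher in the SEZ6 cluster, at 178 and 62.6 CPM in single cells and 248 and 89.5 CPM in nuclei. KCNIP1 and KCNIP4 thus had the opposite order to KCND2 across the clusters, while KCNIP3, of the same family, had the order of KCND2, with log2 ratios of 0.87 (0.61 to 1.15) in single cells and 0.44 (0.24 to 0.65) in nuclei.

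Among the other Kv7 genes, KCNQ5 (Kv7.5) had the largest ratio in single cells of the members with over 1000 transcripts in these classes. It was at 39.6 and 1039 CPM in RG-like and excitatory neuron-like single cells (518 and 14911 transcripts), a log2 ratio of 4.71 (4.59 to 4.84), and at 17.9 and 631 CPM in nuclei, a log2 ratio of 5.14 (4.92 to 5.37). With free RNA subtracted it was set to 0 in RG-like single cells, where the estimate took off more than was counted. Over wells it ran from 6.84 to 234 CPM (median 35.6) and 364 to 2573 CPM (median 947) in single cells, and from 3.23 to 31.6 CPM (median 23.4) and 269 to 1043 CPM (median 447) in nuclei, with no overlap of the classes. IPC-like barcodes, highest for KCNQ3, had only 38.7 and 23.4 CPM of KCNQ5. KCNQ1, known from heart and epithelia, had log2 ratios of 1.04 and 1.39.

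KCNB2, KCNC1, KCNC2 and KCND3, pores of the Kv2, Kv3 and Kv4 families, leaned the same way. The counts by family that follow stand beside 7.92% of all tested genes higher and 12.1% lower in single cells, and 11.8% and 19.7% in nuclei. KCNB2, a delayed rectifier, was at 130.4 and 849 CPM in RG-like and excitatory neuron-like single cells and at 205 and 1271 CPM in nuclei, with log2 ratios of 2.70 (2.63 to 2.78) and 2.63 (2.57 to 2.70), and was higher in the latter class in 17 of 17 and 12 of 12 wells. Of the Kv3 genes, which serve fast firing, KCNC1 and KCNC2 were called higher in both libraries. KCNC2 was at 4.90 and 37.7 CPM in single cells and 2.48 and 103 CPM in nuclei, with log2 ratios of 2.94 (2.57 to 3.34) and 5.37 (4.79 to 6.02), and CR-like barcodes held more, at 182 and 131 CPM. KCND3, the Kv4.3 pore, was at 15.2 and 78.8 CPM and 14.6 and 104 CPM, with log2 ratios of 2.37 (2.15 to 2.60) and 2.83 (2.58 to 3.09). With free RNA subtracted, the single-cell ratios of KCNB2, KCNC2 and KCND3 were 3.83, 4.90 and 3.43. KCND1 was not called, at -0.59 and 0.29. Of the silent Kv subunits, which modify Kv2 pores, 1 of 4 tested was higher in single cells and 3 of 3 in nuclei. Kv1 genes were sparse, with 2 of 5 higher and 1 lower in single cells and 3 of 4 higher in nuclei, and KCNA6 had 4 and 43 transcripts in the classes of single cells, a log2 ratio of 3.29 (1.83 to 5.23), and 6 and 50 in nuclei, 2.63 (1.41 to 4.14). The KCNA6 ratios were unsteady, at up to 4.98 and 4.57 without 1 of the sub-libraries, and at 1.04 in nuclei with another seed.

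In the ether-a-go-go family (KCNH), 3 of 7 tested members were higher in single cells and 4 of 7 in nuclei. KCNH7, an Erg-type pore, had the highest level of all members in excitatory neuron-like barcodes, in CPM and also per kilobase of exon, at 264 and 1669 CPM in the RG-like and excitatory neuron-like single cells and 258 and 3216 CPM in the nuclei, with log2 ratios of 2.66 (2.61 to 2.71) and 3.64 (3.58 to 3.70). Over the 12 wells of nuclei it ran from 97.0 to 340.1 CPM and from 1721 to 4675 CPM, with no overlap. In single cells, over 22 wells with at least 20 RG-like and 27 with at least 20 excitatory neuron-like barcodes, it ran from 99.7 to 651 CPM and from 534 to 4383 CPM, which overlapped, and it was higher in the latter class in 17 of the 17 wells that held both. IPC-like barcodes differed between the libraries, at 1394 CPM in single cells and 338 CPM in nuclei. The make-up of the class differed as well, with G2/M markers summing to 256 and 1285 CPM and excitatory neuron markers to 5078 and 3541 CPM in single cells and nuclei, and their part in the KCNH7 difference was not tested. KCNH3, an Elk-type pore of the forebrain, was at 2.60 and 18.9 CPM and 1.66 and 21.0 CPM, with log2 ratios of 2.86 (2.34 to 3.42) and 3.66 (2.94 to 4.49). It overlaps MCRS1 on the other strand, and KCNH7 overlaps GCA, while the use of strand in counting is not given in the sources used here.

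The inward rectifiers are given next. KCNJ10 (Kir4.1), which buffers potassium in glia, was at 39.0 and 4.81 CPM in RG-like and excitatory neuron-like single cells (510 and 69 transcripts), a log2 ratio of -3.02 (-3.41 to -2.66), and at 57.9 and 3.54 CPM in nuclei, -4.03 (-4.50 to -3.60). Over wells it ran from 13.7 to 88.1 CPM (median 38.9) and 0 to 15.6 CPM (median 2.07) in single cells, where the ranges overlapped, and from 24.4 to 92.7 CPM (median 52.9) and 0 to 8.83 CPM (median 3.98) in nuclei, where they did not. It was lower in the excitatory neuron-like class in 17 of 17 and 12 of 12 wells, and dividing progenitor-like nuclei also held 52.5 CPM. It overlaps PIGM on the same strand. The G protein-gated genes KCNJ3, KCNJ6 and KCNJ9 went the other way. KCNJ6 was at 12.8 and 44.4 CPM in single cells and 4.34 and 81.2 CPM in nuclei, with log2 ratios of 1.80 (1.55 to 2.05) and 4.22 (3.78 to 4.71). KCNJ9 had 2.74 (1.93 to 3.66) and 3.63 (2.82 to 4.56), and KCNJ3 2.19 and 1.45. Of the 16 Kir members, 9 were tested in single cells, with 3 higher and 1 lower, and 8 in nuclei, with 4 higher and 2 lower. In nuclei the other called members were KCNJ4, a strong rectifier that is not G protein-gated, at 1.20 (0.71 to 1.71) (0.67 in single cells), and KCNJ14, at -1.15 (-1.61 to -0.69) (-0.86 in single cells).

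K2P leak channels did not share a direction. KCNK3 (TASK-1) was at 2.07 and 10.2 CPM in RG-like and excitatory neuron-like single cells, a log2 ratio of 2.30 (1.70 to 2.95), and had 2 and 114 transcripts in nuclei, 5.40 (3.52 to 8.47). KCNK9 (TASK-3) had log2 ratios of 1.94 (1.35 to 2.56) and 2.04 (1.10 to 3.12), and KCNK12 2.87 (2.48 to 3.28) and 2.83 (2.28 to 3.42). KCNK2 (TREK-1), which responds to membrane stretch, was at 8.19 and 12.4 CPM in single cells (0.60 (0.24 to 0.96)) but at 23.1 and 8.53 CPM in nuclei (-1.43 (-1.78 to -1.10)). KCNK10, its relative TREK-2, was at 88.4 and 57.7 CPM in single cells and 138 and 106 CPM in nuclei, and was not called in either. Of the K2P members, 4 of 10 tested were higher and 0 lower in single cells, and 3 of 6 were higher and 1, KCNK2, lower in nuclei.

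Calcium-gated and auxiliary subunits complete the family. None of 3 SK and none of 3 KCNAB members tested was called in either library. KCNN3, the SK gene with the most transcripts, was at 222 and 207 CPM in single cells and 421 and 222 CPM in nuclei. None of 4 KCNIP genes was called in single cells, and in nuclei KCNIP4 alone was, at 39.4 and 203 CPM and a log2 ratio of 2.37 (2.21 to 2.53), which was -0.086 with the SEZ6 cluster alone and -0.26 with another seed. KCNMB3, a BK beta subunit whose gene overlaps PIK3CA on the other strand, was lower in both libraries, at 17.2 and 6.90 CPM (-1.32 (-1.68 to -0.97)) and 16.3 and 4.77 CPM (-1.78 (-2.23 to -1.35)). Of the KCNE genes, 2 were tested in single cells, where KCNE1 was higher at 1.69 (1.16 to 2.25), and 1 in nuclei, KCNE1, at 0.89 (0.03 to 1.83). KCNMB4, the neuronal BK beta subunit, had log2 ratios of 1.13 and 0.80. KCNT2, a sodium-activated pore with a high level throughout, was at 333 and 381 CPM in single cells and 476 and 524 CPM in nuclei.

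Each named class was then set against all other named classes, for members with at least 30 transcripts in it. Those at 2 times the level or more were counted. The limit counts transcripts in the class itself, so a sparse gene can enter a small class only by being raised there. The share over all such genes beside each count has the same limit, and the counts are a description only. In excitatory neuron-like barcodes 12 of 61 members passed in single cells (4.07% of all such genes did) and 23 of 56 in nuclei (10.1%). In RG-like barcodes 1 of 55 passed in single cells (2.34%), which was KCNJ10, and 3 of 44 in nuclei (6.34%), which were KCNJ10, KCNK2 and KCNJ14. In dividing progenitor-like barcodes 0 of 63 (3.79%) and 1 of 53 (5.74%) passed. In IPC-like barcodes 3 of 47 passed in single cells (2.63%) and 4 of 23 in nuclei (3.88%). KCNIP4 led there, at 347 against 66.1 CPM in the other classes of single cells and 751 against 145 CPM in nuclei. KCNAB1, a Kv beta subunit, was at 32.6 against 15.3 CPM and 79.0 against 17.1 CPM. KCNN1, an SK pore, was at 162 against 44.8 CPM in nuclei, and KCNJ6 at 77.8 against 33.0 CPM in single cells.

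In ChP-like barcodes, an epithelial class, 10 of 53 members passed in single cells (13.1% of all such genes did) and 10 of 31 in nuclei (17.3%). KCNK1 (TWIK-1) was at 102 against 3.95 CPM in the other classes of single cells and 197 against 6.46 CPM in nuclei. KCNE1, an auxiliary subunit of Kv7.1, was at 32.6 against 5.19 CPM and 79.4 against 2.50 CPM, and KCNJ13 (Kir7.1), an epithelial rectifier, at 40.2 against 2.91 CPM and 48.2 against 2.78 CPM. KCNH5, an Eag-type pore, was at 133 against 8.40 CPM and 394 against 23.5 CPM, and hem-like nuclei, which carried choroid plexus markers, held 190.1 CPM of it. KCNK13 was at 20.1 against 3.13 CPM and 34.9 against 1.81 CPM. KCNA5 passed in single cells on 50 transcripts, at 5.14 against 0.269 CPM, and had 4 transcripts in ChP-like nuclei.

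In CR-like barcodes 12 of 35 members passed in single cells (6.15%) and 19 of 44 in nuclei (8.45%). Of the 716 CR-like nuclei, 648 were in the cluster led by NXPH1 and GFRA1, on which the values for nuclei mainly rest. KCNK9 was at 37.7 against 5.26 CPM and 29.8 against 3.14 CPM, and KCNA2, an axonal Kv1 pore, at 20.1 against 4.39 CPM and 17.7 against 3.68 CPM. KCNK3 was at 19.6 against 3.22 CPM in nuclei, and KCNJ5, a G protein-gated Kir pore, at 9.39 against 0.830 CPM on 34 transcripts. In hem-like barcodes 11 of 38 passed in single cells (13.6%) and 12 of 42 in nuclei (10.9%). The hem-like clusters of the libraries had different leading genes, so their values may not be those of the same cells. KCNH1 was at 35.5 against 11.4 CPM and 55.5 against 12.6 CPM, and KCNMB2 at 67.2 against 27.7 CPM and 135 against 35.1 CPM. KCNJ2 (Kir2.1) was at 17.0 against 0.842 CPM in single cells on 45 transcripts, at 5.16 CPM without the well that gave most hem-like cells, and had 10 transcripts in hem-like nuclei. Glycolytic-state barcodes were named in single cells only, where 4 of 66 passed (2.34%). These were KCNK3, KCNJ9, KCNA4 and KCNJ12, the last at 4.37 against 0.791 CPM, whose reads are uncertain because KCNJ18 is a near-identical copy.

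**Figure D4:**
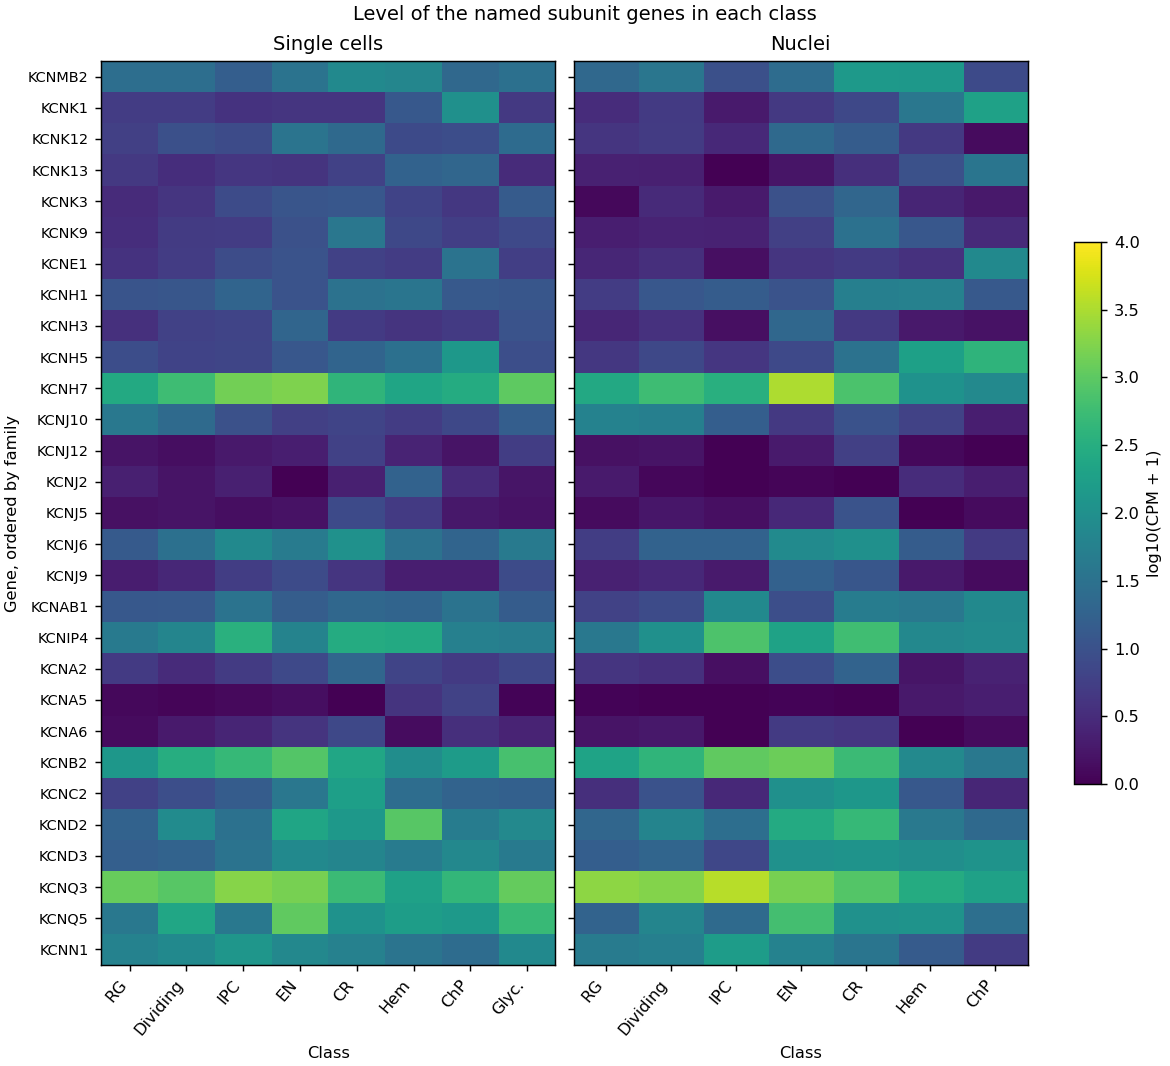
Level of 29 channel genes (vertical axis, by family) in each named class (horizontal axis) of single cells and nuclei, as log10(CPM + 1). KCNQ3 and KCNH7 were high in most classes, while KCNK1, KCNE1 and KCNH5 stood out in ChP-like and KCNK9 in CR-like barcodes.

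Genes that act with these channels were read from a separate list of 28. In single cells 26 were tested, of which 11 were higher and 0 lower in the excitatory neuron-like class, where 7.92% and 12.1% of all tested genes were. In nuclei 25 were tested, of which 14 were higher and 0 lower, against 11.8% and 19.7% of all tested genes. CNTNAP2, which clusters Kv1 channels on axons, had log2 ratios of 3.29 (3.22 to 3.36) in single cells and 4.65 (4.55 to 4.76) in nuclei, and ANK3, which anchors Kv7 channels at the axon initial segment, 2.97 (2.88 to 3.05) and 3.68 (3.59 to 3.78). DPP6, a partner of Kv4 pores, was at 72.7 and 257 CPM and 50.4 and 335 CPM in the RG-like and excitatory neuron-like classes (1.82 and 2.73), and KCNMA1, the BK pore, at 30.3 and 75.6 CPM and 33.7 and 177 CPM (1.32 and 2.39). The pacemaker gene HCN4 had log2 ratios of 3.22 in single cells and 4.28 in nuclei, and SLC12A5 (KCC2), the neuronal chloride extruder, 2.15 and 2.05.

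Levels of different genes were compared per kilobase of exon. In RG-like barcodes KCNQ3 led the members, at 92.6 CPM per kilobase in single cells and 166 in nuclei, with KCNH7 at 52.8 and 51.5 and KCNT2 at 46.3 and 66.2. In excitatory neuron-like barcodes KCNH7 led, at 334 and 643 CPM per kilobase, followed by KCNB2 at 227 and 339 and KCNQ3 at 121 and 118. Per kilobase of gene span the order differed. KCNQ3 then led in RG-like barcodes of both libraries and in excitatory neuron-like single cells, and KCNH7 in excitatory neuron-like nuclei. Next to KCNQ3 in RG-like single cells were KCNAB3 and KCNJ14, which both overlap coding genes on the same strand, so their reads may be shared. KCNQ3, KCNT2, KCNB2 and KCNH7, among the 5 members with the highest CPM in each of these classes in both libraries, span 360.2, 383, 401 and 467 kilobases. KCNN3, among the 5 in RG-like barcodes, spans 173 and KCNQ5, among the 5 in excitatory neuron-like barcodes, 577, beside a median of 42.1 over the members. The Spearman rho of CPM and span was taken across members with at least 30 transcripts in a class. It was 0.36 (55 genes) in RG-like and 0.56 (61 genes) in excitatory neuron-like single cells. In nuclei it was 0.24 (44 genes) and 0.56 (56 genes). For exon length rho was 0.21 in RG-like and 0.30 in excitatory neuron-like single cells, and -0.20 and 0.18 in nuclei. These values describe genes that share the same libraries and depth.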

How the data were processed

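The authors prepared split-pool barcoded libraries of single cells and of nuclei, split them into 8 and 2 sub-libraries, aligned reads to GRCh38 with the vendor's pipeline and deposited unfiltered transcript counts per barcode and gene. The deposited counts were used as they stand. Barcodes were retained if over 500 genes and over 1000 transcripts were detected and mitochondrial genes gave no more than 20% of the transcripts. Scrublet called 0 doublets in either library, so the highest 5% (single cells) and 3% (nuclei) of scores were left out, which left 19169 and 13801 barcodes. Clustering used scanpy 1.11.5 (counts scaled to 10000, 2000 variable genes without channel or mitochondrial genes, 30 components, 15 neighbours, Leiden resolution 1, seed 0), and clusters were named by raised markers. Counts were summed per class and given as CPM with exact Poisson intervals. Ratios have exact conditional binomial intervals and shares exact Clopper-Pearson intervals, all at 95% and for counting error only.

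The members and lists were chosen with earlier results of these data known. Named genes were KCNQ3, KCND2, KCNB2, KCNH7 and KCNQ5, up to 14 members with the largest ratios called the same way in both libraries, up to 3 leading members of each other class at 2 times or more, and associated genes called the same way in both libraries. Some genes that this rule takes are not reported here. All other genes were named after their values were seen. Gene positions are from GENCODE on GRCh38. Of the 94 members, 25 overlap a protein-coding gene, and reads there may be shared. Among them, KCNJ14 (with GRWD1), KCNA6 (with GALNT8), KCNAB3 and KCNE1 do so on the same strand. On simulated counts, with 200 genes changed, changes of 2 log2 units were recovered in 100% and changes of 1 log2 unit in 47.5% (single cells) and 49.5% (nuclei) of genes. A change of 1 log2 unit equals the call limit, so its recovery was set by the design. The changed genes were picked above a minimum count and had counting error only, unlike sparse members. No barcode could be assigned to a condition or an organoid, so the planned count model over organoids was not run. The unnamed barcodes entered no contrast between classes.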

Additional observations from a re-analysis of the deposited data

Results flagged for a closer look

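Log2 ratios of excitatory neuron-like over RG-like CPM had opposite signs in the libraries for KCNQ3 and KCNK2, with both intervals away from 0. The KCNQ3 ratio was 0.38 in single cells and -0.49 in nuclei, and the KCNK2 ratio was 0.60 in single cells and -1.43 in nuclei. The difference between the libraries was not tested, and material, days and conditions differ between them at once and cannot be told apart.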

How the results depend on the processing

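The count of members higher in the excitatory neuron-like class stayed within 1.5 times its value under each alternative run. The count of lower members, 3 in single cells, became 6 with free RNA subtracted and 5 with the SEZ6 cluster alone, and the count in nuclei, 4, became 7 with the CDH7 cluster alone. Leaving out each sub-library gave 2 to 3 lower members in single cells and 4 to 5 in nuclei.

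For KCNQ3 in single cells the ratio was 0.25 and 0.27 at Leiden resolutions 0.5 and 2, 0.33 with all doublet scores kept, 0.18 with members among the clustering genes, 0.14 at a mitochondrial limit of 10%, -0.050 above 5000 transcripts, 0.26 with seed 1, 0.56 after thinning, 0.42 with free RNA subtracted, 0.33 without the largest well, and 0.51 and -0.30 with the SEZ6 or CDH7 cluster alone. Without each sub-library it ran from 0.37 to 0.41. For KCNQ3 in nuclei, in the same order, it was -0.82 and -0.090 (resolution), -0.44 (doublets), -0.18 (mitochondrial limit), -0.26 and -0.33 (above 2000 and 5000 transcripts), 0.072 (seed 1), -0.42 (largest well), 0.074 and -1.03 (SEZ6 or CDH7 cluster alone), and -0.70 and -0.18 with the RG-like cluster of 2002 or of 688 nuclei alone. Without each sub-library it ran from -0.53 to -0.43.

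The KCND2 ratio in single cells was 3.23 and 3.44 (resolution), 2.96 (members among the clustering genes), 3.22 (above 5000 transcripts), 3.28 (seed 1), 3.30 (thinning), and 3.98 and 1.30 (SEZ6 or CDH7 cluster). In nuclei it was 3.30 (above 5000 transcripts), 4.25 (seed 1), 4.09 (free RNA subtracted), 4.33 and 3.33 (SEZ6 or CDH7 cluster), and 4.25 and 3.41 (RG-like cluster of 2002 or 688 nuclei). KCNIP4 in nuclei changed sign with seed 1 (-0.26) and with the SEZ6 cluster alone (-0.086). The cause of these shifts was not tested. With seed 1 the excitatory neuron-like nuclei were 1 cluster of 1182, with KCNQ3 at 2208 CPM, beside 1217 nuclei at 2214 CPM in the SEZ6 cluster. In nuclei the seed and the SEZ6 cluster alone may therefore not be separate checks. Thinned values are from 1 random draw, set after an earlier draw had been seen, and vary with it. Above 2000 transcripts no RG-like cluster was found in single cells, and with free RNA subtracted KCND2 and KCNQ5 were set to 0 in RG-like single cells, so these gave no value. The leave-out of the largest well and the single-cluster ratios were chosen after seeing the data. Depth limits the sparse members, and 67 of 94 members in single cells and 57 of 94 in nuclei had at least 30 transcripts in the classes compared. No paired analysis was possible because each library is 1 sample and its barcodes carry no replicate number, and classes were paired only within first-round wells, as a description.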
